A study of Mus musculus with 2 samples.

Results

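A mitochondrion makes only a handful of its proteins itself, so nearly all of them are made in the cytosol and have to be imported, and the respiratory complexes are then put together by dedicated assembly factors that are absent from the finished enzyme. The genes for both tasks were described here in the ventral midbrain of mice in which COUP-TFII is to be overexpressed in dopaminergic (DA) neurons, cells with a high demand for mitochondrial ATP. They were taken from the deposited table by symbol, as every row whose name begins with Timm, Tomm, Ndufaf, Coa, Sdhaf, Uqcc, Chchd or Cox1 followed by a digit, which gave 57 of 31252 gene rows. Of these, 55 averaged 10 counts or more per library and are described below by fold change. One of the 55, Tomm6os, is a non-coding RNA from the strand opposite Tomm6 and is no import factor, and the other 54 code for proteins. The name import and assembly genes stands for the whole set taken by symbol. Some CHCHD genes in it have other roles, given below, and no import or assembly role is given here for Chchd2 and Chchd10.

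The data are 2 libraries of polyadenylated RNA from ventral midbrain of mice 2 months old, of a strain given as incipient congenic C57BL/6. Both genotypes carried Slc6a3-Cre, in which the dopamine transporter gene drives Cre recombinase, and the OE genotype alone also carried CAG-S-COUP-TFII, an allele that Cre turns on. The library labelled Ctrl held 16984336 counts and the library labelled OE 21326632, and whether each came from 1 mouse or a pool is not given in the sources used here. With 1 library per group, no difference below has a replicate check and none was tested across mice. The sample labels name DA neurons as the cell type, but the tissue is given as ventral midbrain: all 16 markers of DA neurons had counts in both libraries, as did all markers of oligodendrocytes, astrocytes and microglia that were listed.

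The gene that the allele overexpresses went against the labels. Nr2f2, which encodes COUP-TFII, had 637 counts under the Ctrl label and 377 under the OE label (log2 fold change -1.07, 95% counting interval -1.26 to -0.88). These counts are of bulk ventral midbrain, whereas the paper reports raised COUP-TFII mRNA in DA neurons isolated from OE mice. All fold changes here divide the library labelled OE by the one labelled Ctrl, on the scale of log2 (normalized count + 0.5), and no direction below can be read as an effect of raised COUP-TFII. Whether transcripts of the allele itself are counted under Nr2f2 is not given in the sources used here. The counting interval is an exact Clopper-Pearson interval on how a gene's counts split between the 2 libraries, and it covers counting error only. Where counts stand in pairs, the first is from the library labelled Ctrl.

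In these libraries the import and assembly genes sat slightly on the higher side in the library labelled OE. Their median log2 fold change was 0.12, against 0.0046 over all 15246 rows tested, and 50 of the 55 had a fold change above 0, against 51.0% of all rows. By more than log2 0.2, the fold threshold of the study's methods, 18 of the 55 (32.7%) were higher and 0 were lower, against 17.9% of all rows higher and 16.6% lower. For 16 of the 18 the counting interval also lay above 0, which held for 9.90% of all rows, and it lay below 0 past that threshold for 9.16% of all rows and for 0 of the 55. Whatever their size, 22 of the 55 had an interval above 0, against 15.8% of all rows, and 0 had one below it, against 14.4%. The differences were small: the middle of the genes lay between log2 0.053 and 0.23, the highest was 0.49 and the lowest -0.12. All counts of the 57 genes summed to 2154 CPM (1 CPM is 1 count in 1000000 of the scaled library) under the Ctrl label and 2382 CPM under the OE label, 10.6% more. In the same libraries the summed markers of DA neurons were at 1559 and 3701 CPM and those of oligodendrocytes at 20994 and 17619 CPM, and the part of tissue makeup in the result was not tested.

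**Figure D1:**
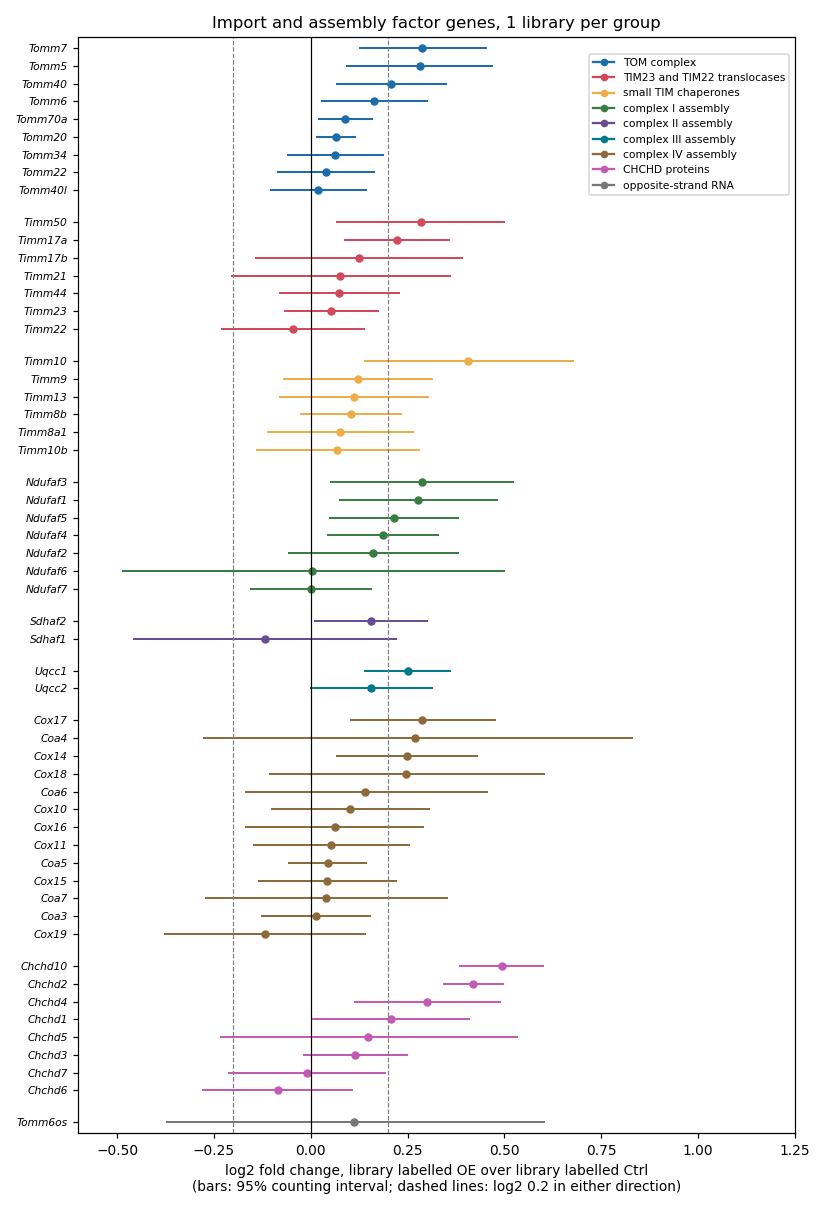
Log2 fold change of each of the 55 import and assembly rows tested (points, horizontal axis, OE label over Ctrl label) with its 95% counting interval (bars), coloured by role. The CHCHD genes Chchd10 and Chchd2 lie farthest to the right at 0.49 and 0.42, and no gene lies to the left of the dashed line at log2 -0.2.

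**Figure D2:**
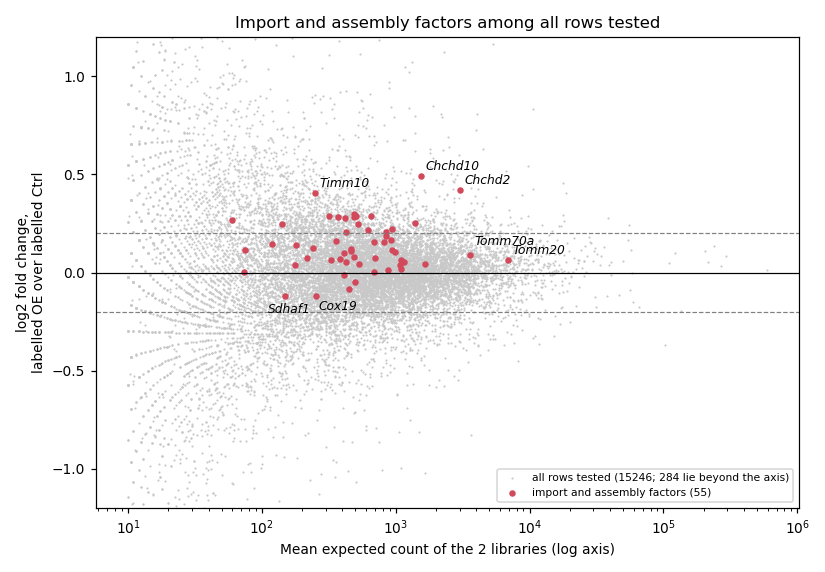
Log2 fold change (vertical axis) against the mean expected count of the 2 libraries (horizontal log axis) for all 15246 rows tested in grey and the 55 import and assembly rows in red. The red points run from -0.12 to 0.49, inside the spread of the grey ones, and 50 of them lie above 0.

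The stretch before the start of each gene was read from the RefSeq promoter table (GRCm38.p6, the assembly that mm10 in the submitters' processing notes stands for), which had an entry for 48 of the 57 genes, 46 of them among those tested. Each window runs from 250 bases before to 50 bases after the start. The letters of 4 kinds of site were searched on both strands. CCGGAAG is the core of sites for ETS factors such as GABP and the palindrome of GCGCA followed at once by TGCGC is the site of NRF1, both factors known as regulators of nuclear genes for mitochondria. AGGTCA is the core site of nuclear receptors, and a pair of them in the same direction with any 1 base between is a direct repeat, a kind of site that COUP-TF proteins are known to bind. Each direct repeat also counts as a core site. Sequences are shown for the largest fold change in the table (Chchd10), the next gene with an entry (Timm10), a gene with an NRF1 match before its start (Ndufaf4) and a receptor gene that stayed within log2 0.2 (Tomm22). Each is written 5′ to 3′ on the gene's strand and ends just before the start, with matches in capitals.
Chchd10, chr10:75933010-75933129, plus strand: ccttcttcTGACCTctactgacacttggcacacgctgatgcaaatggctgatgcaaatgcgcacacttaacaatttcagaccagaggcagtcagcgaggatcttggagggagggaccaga
Timm10, chr2:84826901-84827020, plus strand: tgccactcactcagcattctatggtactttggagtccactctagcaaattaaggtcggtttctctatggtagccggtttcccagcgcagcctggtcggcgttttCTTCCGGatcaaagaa
Ndufaf4, chr4:24897963-24898082, plus strand: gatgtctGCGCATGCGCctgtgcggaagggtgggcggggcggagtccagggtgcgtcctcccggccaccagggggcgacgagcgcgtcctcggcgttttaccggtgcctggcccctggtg
Tomm22, chr15:79670748-79670867, plus strand: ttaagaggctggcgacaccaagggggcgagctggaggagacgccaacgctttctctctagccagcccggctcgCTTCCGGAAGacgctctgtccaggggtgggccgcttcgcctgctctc

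The capitals of Chchd10 are the nuclear receptor core site read from the other strand and begin 112 bases before the start. In Ndufaf4 the NRF1 letters begin 113 bases before it. In Timm10 the ETS letters begin 16 bases before it, and the run in Tomm22 holds those letters on both strands, overlapping each other. The ETS letters stood in the windows of 17 of the 46 tested genes with an entry (37.0%), against 18.1% of the 11515 genes of the table that were tested here and 9.93% of all 27025 genes in it. The nuclear receptor core site stood in 16 of the 46 (34.8%), against 14.8% and 18.1%. The NRF1 letters stood in 2 of the 46 (4.35%), Ndufaf4 and Ndufaf5, against 2.15% and 1.07%, and the direct repeat in 0 of the 46 and in 4 of the 11515. The median fold change was 0.10 with and 0.12 without the ETS letters, and 0.11 with and 0.12 without the nuclear receptor core site.

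The CHCHD genes, whose small proteins are held in shape by cysteine pairs, included the largest differences. Chchd10 (chromosome 10, 75933130 to 75937750) had 1126 counts under the Ctrl label and 1969 under the OE label (log2 fold change 0.49, interval 0.39 to 0.60). Its paralogue Chchd2 (chromosome 5, 129881161 to 129887470) had 2252 and 3745 counts and a log2 fold change of 0.42 (0.34 to 0.50). Both genes are known for human mutations, CHCHD2 in familial Parkinson's disease and CHCHD10 in motor neuron disease and dementia. The count of Chchd2 was not whole, so RSEM shared some of its reads with other rows, and the annotation holds a pseudogene named Chchd2-ps. These 2 genes alone held 31.4% of the difference in the summed level: together they went from 198 to 269 CPM, 36.1% more, while the other members went from 1956 to 2112 CPM, a difference of 156 CPM.

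Chchd4, the mouse gene for MIA40, which pulls cysteine-rich proteins into the intermembrane space and oxidizes them, had 388 and 594 counts (0.30, interval 0.11 to 0.49). Chchd1, whose product belongs to the small subunit of the mitochondrial ribosome, had 348 and 499 counts and a log2 fold change of 0.21, with an interval whose lower bound of 0.0064 barely cleared 0. The other CHCHD genes lay within log2 0.2. Chchd3 and Chchd6 encode parts of MICOS, the complex that shapes the necks of the cristae. Chchd3 had 801 and 1078 counts (0.12, interval -0.018 to 0.25), and Chchd6, with 414 and 485 counts, had the lowest value of the family at -0.085 (-0.28 to 0.11). The counting interval of Chchd6 thus lay wholly below those of Chchd2, Chchd4 and Chchd10. Chchd5 (101 and 139 counts, 0.15) and Chchd7 (368 and 454 counts, -0.010) had intervals that held 0.

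The TOM complex is the entry gate of the outer membrane. Its receptors catch precursor proteins, Tomm40 forms the pore, and Tomm5, Tomm6 and Tomm7 are small subunits at the pore. All 3 receptor genes stayed within log2 0.2. Tomm20, with 5972 and 7766 counts the highest of the complex, had a log2 fold change of 0.066 (0.017 to 0.11). Tomm70a had 3095 and 4091 counts (0.089, interval 0.022 to 0.16), and Tomm22 had 941 and 1201 counts (0.039, interval -0.086 to 0.16). For Tomm20 and Tomm70a the depth put the interval above 0 although the difference stayed well under log2 0.2.

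Of the genes for the pore and its small subunits, Tomm40, Tomm5 and Tomm7 were past log2 0.2 and Tomm6 was not. The intervals of all 4 overlapped those of Tomm70a and Tomm22. The interval of Tomm7 lay wholly above that of Tomm20, and those of Tomm40, Tomm5 and Tomm6 overlapped it. Tomm40 had 693 counts under the Ctrl label and 995 under the OE label (log2 fold change 0.21, interval 0.067 to 0.35). Tomm7 had 516 and 783 counts (0.29, interval 0.13 to 0.45) and Tomm5 had 392 and 592 (0.28, interval 0.095 to 0.47). Tomm6, with 772 and 1075 counts, stayed within log2 0.2 at 0.16 (0.030 to 0.30). Tomm6 and Tomm6os (64 and 86 counts, 0.11, interval -0.37 to 0.60) lie on opposite strands of the same stretch of chromosome 17. The kit marks strand, but whether the counting used it is not given in the sources used here, so their counts may not be fully separate. The same holds for the 27 members that overlap a gene on the opposite strand, Chchd10 among them with Mmp11. The counts of Tomm6, Tomm6os and Chchd10 were whole in both libraries, so no reads shared with other rows show in them. Tomm40l, a paralogue of the pore gene, had 975 and 1228 counts and a log2 fold change of 0.020 (-0.10 to 0.14), and its interval overlapped that of Tomm40. Tomm34, whose product works with chaperones in the cytosol, had 951 and 1235 counts (0.064, interval -0.059 to 0.19).

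In the inner membrane, the TIM23 complex takes in proteins with a presequence and the TIM22 complex inserts carriers. The channel gene Timm23 had 1009 counts under the Ctrl label and 1301 under the OE label (log2 fold change 0.053, interval -0.066 to 0.17). Timm44, which ties the import motor to the channel, had 607 and 794 counts (0.074, interval -0.080 to 0.23). Timm22, the channel of the carrier pathway, had 453 and 545 (-0.046, interval -0.23 to 0.14). None of these 3 differences was detectable at this depth. Past log2 0.2 were Timm50, the receptor that hands precursors to the channel, with 297 and 449 counts (0.29, interval 0.068 to 0.50), and Timm17a, a channel partner, with 765 and 1109 counts (0.22, interval 0.088 to 0.36). The paralogue Timm17b had 206 and 279 counts and a log2 fold change of 0.12, with an interval (-0.14 to 0.39) that held both 0 and the value of Timm17a. Timm21, with 187 and 245 counts, had 0.076 (-0.20 to 0.36). The count of Timm50 was not whole.

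The small TIM proteins form ring-shaped chaperones that escort hydrophobic proteins across the intermembrane space. One of the 6 tested genes stood out, Timm10 (chromosome 2, 84827021 to 84830213), with 187 counts under the Ctrl label and 308 under the OE label (log2 fold change 0.41, interval 0.14 to 0.68). The other 5 lay close together, from 0.069 for Timm10b to 0.12 for Timm9, and all 5 of their intervals held 0. Among them is Timm9, with 392 and 530 counts, whose product shares a ring with that of Timm10. The interval of Timm9 (-0.069 to 0.31) overlapped that of Timm10. Timm8b, the most abundant of the group, had 848 and 1132 counts (0.10, interval -0.026 to 0.23).

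Complex I is the NADH dehydrogenase at the start of the respiratory chain. Of the factors that build it, 3 of 7 were higher by more than log2 0.2 and all 7 values were above 0. Over all rows tested, 17.9% were higher and 16.6% lower by that threshold, and 51.0% were above 0. Ndufaf1, which helps to join the membrane parts, had 334 counts under the Ctrl label and 503 under the OE label (log2 fold change 0.28, interval 0.075 to 0.48). Ndufaf3 had 252 and 382 counts (0.29, interval 0.054 to 0.52), and Ndufaf4, whose product acts together with that of Ndufaf3, had 699 and 988 counts and stayed just short of the threshold at 0.19 (0.045 to 0.33). Ndufaf5, which encodes an enzyme that modifies a complex I subunit, had 509 and 734 counts (0.21, interval 0.050 to 0.38). The methyltransferase gene Ndufaf7 had 609 and 757 counts and a log2 fold change of 0.00064 (-0.16 to 0.16). Ndufaf2 had 300 and 417 counts (0.16, interval -0.056 to 0.38). Ndufaf6, with 65 and 81 counts, was too shallow to place, with an interval from -0.48 to 0.50. Ndufaf3 overlaps Impdh2 on the opposite strand, so the same limit on strand holds for it, though its counts were whole in both libraries.

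Complexes II and III had 2 genes each under these symbols. Sdhaf2, needed to attach the flavin to succinate dehydrogenase, had 682 counts under the Ctrl label and 944 under the OE label (log2 fold change 0.16, interval 0.012 to 0.30). Sdhaf1, which helps to place its iron-sulphur clusters, had 139 and 159 counts (-0.12, interval -0.46 to 0.22). Uqcc1 and Uqcc2 act on cytochrome b, the subunit of complex III that is encoded in the mitochondrion. Uqcc1 had 1134 and 1676 counts (0.25, interval 0.14 to 0.36). Uqcc2 had 577 and 799 counts and a log2 fold change of 0.16, with an interval (0.00011 to 0.31) that barely cleared 0. The depth behind Uqcc1 made it one of the 5 genes whose interval lay above the median of all 55.

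The largest group served cytochrome c oxidase, complex IV. Its median log2 fold change was 0.063, and 12 of its 13 values were above 0. Of the 13 genes, 4 (30.8%) were past log2 0.2 on the higher side and 0 on the lower. Over all rows these shares were 17.9% and 16.6%. For 2 of the 4 the interval lay above 0. Cox17, which carries copper towards the enzyme, had 398 counts under the Ctrl label and 604 under the OE label (log2 fold change 0.29, interval 0.10 to 0.47). Cox14, which acts on the newly made core subunit, had 425 and 627 counts (0.25, interval 0.068 to 0.43). Cox18 (114 and 168 counts, 0.25) and Coa4 (48 and 72 counts, 0.27) were as far from 0, but their intervals, -0.11 to 0.60 and -0.28 to 0.83, held it.

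The other 9 genes of complex IV stayed within log2 0.2. Cox10 and Cox15 make the heme of the enzyme in consecutive steps. Cox10 had 351 and 468 counts (0.10, interval -0.10 to 0.31) and Cox15 had 464 and 594 (0.043, interval -0.13 to 0.22). Coa3, which stabilizes the new core subunit, had 771 and 967 counts and a log2 fold change of 0.014 (-0.12 to 0.15), which passed to -0.0017 when libraries were scaled by their total counts. The most abundant gene of the group, Coa5, had 1440 and 1844 counts (0.044, interval -0.057 to 0.14). Cox19, with 236 and 270 counts, had the lowest value of the group at -0.12 (-0.38 to 0.14). The remaining 4, Coa6, Coa7, Cox11 and Cox16, ranged from 0.040 to 0.14, each with an interval that held 0.

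Near-silent members were Tomm20l and Timm8a2, relatives of Tomm20 and Timm8a1, with 0 counts in both libraries. A count of 0 allows up to 3 counts per library, or 0.176 CPM under the Ctrl label and 0.141 CPM under the OE label. No fold change was computed for them.

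Taken per length, the genes covered a wide range. The scale is CPM per kb of the longest transcript that GENCODE M21 marks as principal, so a gene that uses a shorter transcript is understated. Chchd2 led with 144 CPM per kb under the Ctrl label and 193 under the OE label. Timm8b followed with 95.9 and 103, Tomm20 with 71.4 and 74.7, and Uqcc2 with 67.6 and 75.3. At the lower end were Coa4 (2.02 and 2.44) and Coa7 (2.44 and 2.51), besides Tomm6os at 1.27 and 1.38. Chchd10 went from 44.3 to 62.4 CPM per kb and so stood above Coa3 (51.0 and 51.4) and Timm23 (50.4 and 52.3) under the OE label and below both under the Ctrl label. With 1 library each, no spread is at hand to say which neighbours in this order differ.

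**Figure D3:**
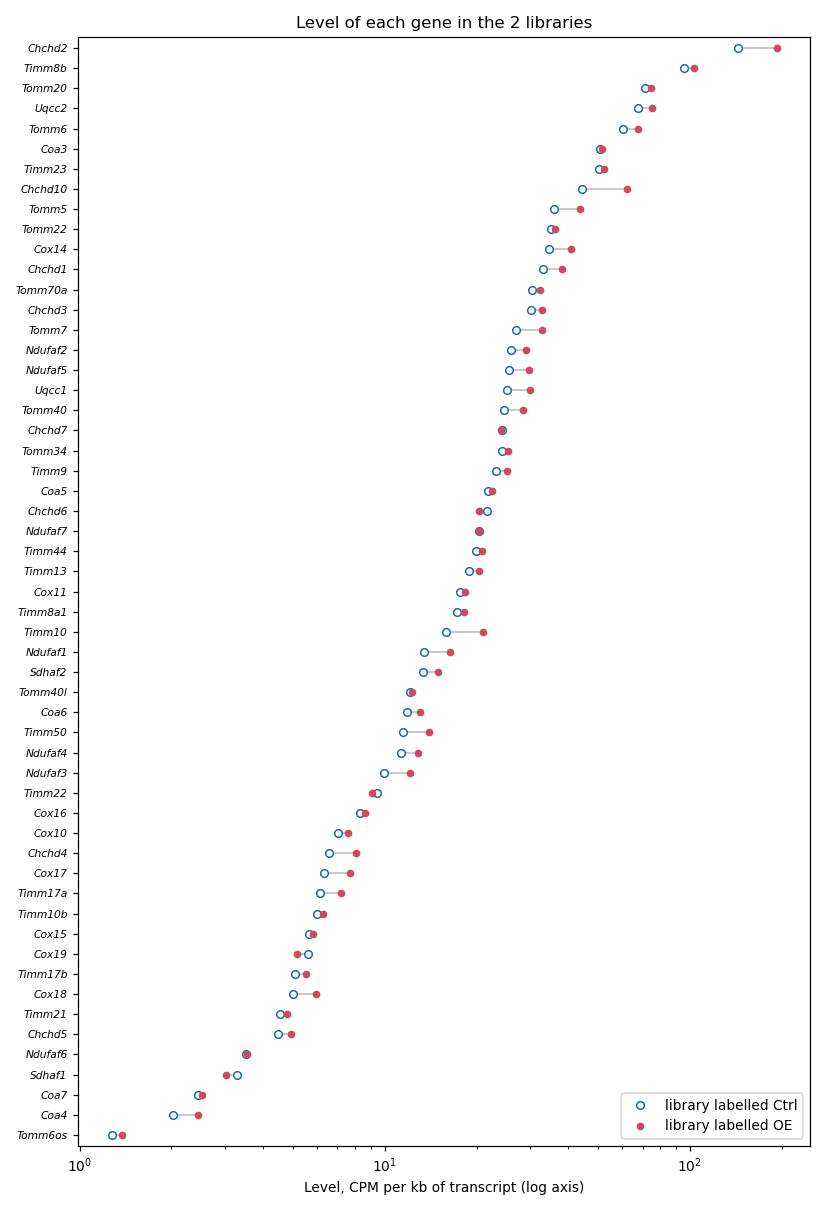
Level of the 55 genes in CPM per kb of transcript (horizontal log axis) in the library labelled Ctrl (open circles) and the library labelled OE (filled circles), ordered by the first. The order is mostly kept, and the longest link among the abundant genes is that of Chchd10, from 44.3 to 62.4.

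Most of the genes lay within counting error of their common median. The intervals of 48 of the 55 held that median of 0.12, those of 5 lay above it and those of 2 below it. The 5 were Chchd10, Chchd2, Timm10, Uqcc1 and Tomm7, and the 2 were Chchd6 and, by a hair, Tomm20. Just short of the threshold of log2 0.2 were Ndufaf4 at 0.19 and Tomm6, Ndufaf2, Uqcc2 and Sdhaf2 at 0.16, and just past it were Chchd1, Tomm40 and Ndufaf5 at 0.21 and Timm17a at 0.22.

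Shorter transcripts tended to have the higher fold changes, in this set and over all rows. Across the 54 protein-coding genes, log2 transcript length and fold change had a Pearson's r of -0.23 and a Spearman's rho of -0.23, values taken across genes of the same 2 libraries, which are no replicates. Over the 14477 tested rows with a length they were -0.10 and -0.18. These genes are short: their median length was 1502 bases, against 3089 over all tested rows. Of the 27 members at or under that median, 12 (44.4%) were higher by more than log2 0.2, with a median of 0.16, and of all 2017 rows at or under it 29.9% were higher and 12.1% lower. Of the 27 longer members, 6 (22.2%) were higher, with a median of 0.074, against 15.1% of all 12460 longer rows higher and 16.9% lower. Transcript length thus moved with the result, and its part in it was not tested.

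**Figure D4:**
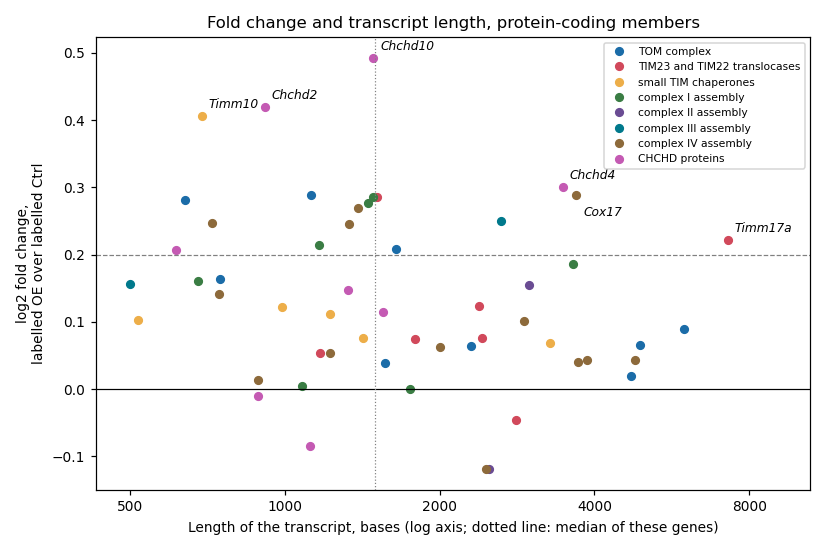
Log2 fold change (vertical axis) against transcript length in bases (horizontal log axis) for the 54 protein-coding members, coloured by role, with the members' median length as a dotted line and log2 0.2 as a dashed line. To the left of the dotted line 12 of 27 genes lie above the dashed line, to the right 6 of 27.

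Some members start head to head with a protein-coding gene on the opposite strand, so that both share the DNA between them. This held within 1000 bases for 12 members whose partner was also tested. The median fold change was 0.11 for these members and 0.022 for their partners, but the counts did not separate them. Past log2 0.2 on the higher side were 2 of the 12 members, Chchd4 and Ndufaf5, and 2 of the 12 partners, and 1 partner was past it on the lower side. Over all rows tested 17.9% were higher and 16.6% lower, so 2 of 12 lay near the share of all rows. Intervals are not given for the partners. For example, Chchd4 starts 157 bases from Tmem43, which had 731 and 932 counts and a log2 fold change of 0.037, against 0.30 for Chchd4. Timm8b starts 98 bases from Sdhd, which encodes a subunit of complex II and had 1459 and 1917 counts (0.081), close to the 0.10 of Timm8b.

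Other genes of the same pathways, whose symbols differ, were read from the same libraries. Of a list of 54 such genes, 52 were found and tested. Of the 52, 40 had a fold change above 0 and 12 below it. Their median log2 fold change was 0.088. Past log2 0.2, 16 (30.8%) were higher and 1 was lower, and for 11 of the 16 the interval lay above 0. Over all rows tested, 17.9% were higher and 16.6% lower by that threshold, and 9.90% were higher with an interval above 0. Romo1, which encodes a small inner membrane protein tied to reactive oxygen species and to TIM23, had 193 counts under the Ctrl label and 407 under the OE label (0.76, interval 0.51 to 1.02). The chaperonin partner gene Hspe1 had 872 and 1329 (0.29, interval 0.17 to 0.42), and Higd1a, whose product binds complex IV, had 1527 and 2354 (0.31, interval 0.22 to 0.41). Pam16 of the import motor had 259 and 398 counts (0.31, interval 0.077 to 0.54). Pmpcb, the catalytic subunit of the enzyme that clips presequences, had 732 and 1071 (0.24, interval 0.099 to 0.37), while its partner Pmpca had 1618 and 1959 (-0.037). Immt, the core of MICOS, had 2812 and 3647 counts and a value of 0.062 with an interval from -0.0095 to 0.13. Lyrm7, a complex III factor, was the lower one, with 211 and 220 counts (-0.25), and its interval held 0.

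The table also holds 6 family members under older symbols that the naming rule did not reach. Ndufaf8, listed as 1810043H04Rik, had 51 and 95 counts (0.58), with a wide interval from 0.079 to 1.10. Sdhaf4, listed as 1110058L19Rik, had 199 and 315 counts (0.35, interval 0.089 to 0.61). Uqcc3, Timm29, Sdhaf3 and Coa8 had values from 0.0098 to 0.26 with intervals that held 0.

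The complex I subunits that some of these factors assemble, and the ribosome inside the mitochondrion, were read in the same way. Both lists were taken by symbol alone. The first holds Ndufa, Ndufb, Ndufc, Ndufs or Ndufv followed by a digit, Ndufa4 and Ndufa4l2 among them, and the second Mrpl or Mrps followed by a digit. Of the 37 rows named as complex I subunits, 15 (40.5%) were past log2 0.2 on the higher side and 0 on the lower, with a median of 0.17. Of 76 mitochondrial ribosomal genes 22 (28.9%) were higher and 0 were lower, with a median of 0.11. Over all rows tested, 17.9% were higher and 16.6% lower. The complex I assembly factors had a median of 0.19. With 1 library per group the lists could not be told apart by a test.

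**Figure D5:**
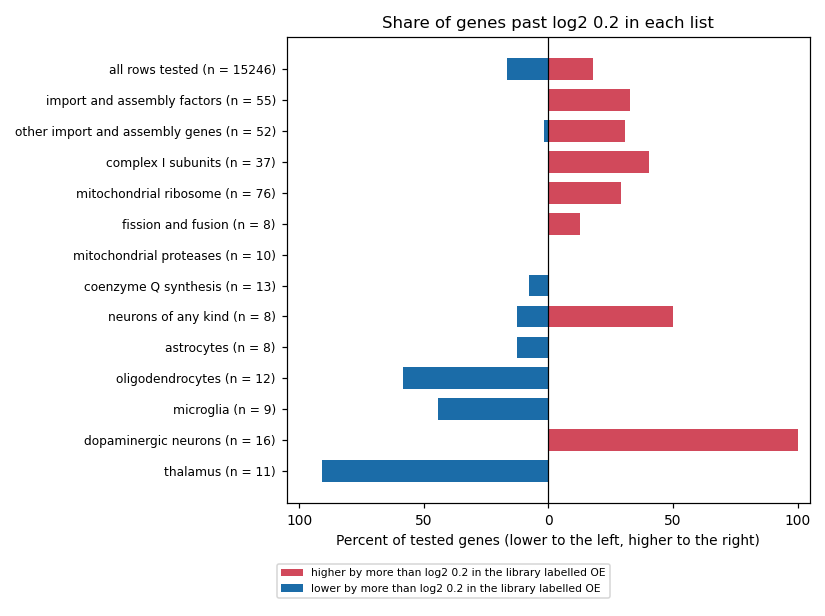
Percent of tested genes in each list that were higher (right, red) or lower (left, blue) by more than log2 0.2 in the library labelled OE, with the number tested beside each name. Import and assembly factors had 32.7% higher and 0% lower, all rows 17.9% and 16.6%, and the marker lists of DA neurons and thalamus stand at 100% higher and 90.9% lower. The lists were chosen with earlier results of these data known.

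Each of the markers of DA neurons differed by more than any import or assembly gene. All 16 of them were past log2 0.2 on the higher side, with a median of 1.26 and values from 0.79 to 2.19. Th, which makes the precursor of dopamine, had 2499 and 9354 counts, and Slc6a3, the dopamine transporter gene, had 4955 and 15033. Of 11 thalamus markers, 10 were lower by more than log2 0.2, with summed levels of 1411 and 920 CPM, and Gbx2 had 30 counts and 0. The marker lists were chosen with earlier results of these data known, so their shares are not independent of these libraries. Markers of neurons of any kind went from 5703 to 6393 CPM in sum, with 4 of 8 higher and 1 lower. Of 12 oligodendrocyte markers 7 were lower, and those of microglia went from 269 to 213 CPM, with 4 of 9 lower. Of 8 astrocyte markers 1 was lower and 0 were higher, and of 4 endothelial markers 2 were lower. Of the 5 choroid plexus markers 3 were tested, and of these 2 were lower and 1, Clic6, was higher. All 5 went from 33.0 to 9.95 CPM in sum, of which Ttr alone held 24.9 and 3.16 CPM. In bulk tissue, fewer cells of a type and less RNA per cell cannot be told apart. With 1 library per group, tissue makeup and genotype cannot be told apart either.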

How the data were processed

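Ventral midbrain RNA of 2 libraries, 1 labelled Ctrl and 1 labelled OE, was analysed. The authors had stranded mRNA libraries made and sequenced by a company, whose pipeline gave expected counts per gene. The authors deposited these expected counts from RSEM without scaling, and the submitters' processing notes name mm10. The aligner and the annotation are not given in the sources used here. Columns were tied to samples by the number in the column name and the sample title. Of the rows, 94.7% held whole counts in both libraries (tolerance 1e-06).

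Libraries were scaled by TMM (edgeR 4.0.16, R 4.3.3), with factors of 1.01 and 0.995. A pseudocount of 0.5 normalized counts was added before fold changes were taken, and rows averaging under 10 counts were left out. Counting intervals (95%, Clopper-Pearson) used rounded counts in scipy 1.17.1 under Python 3.11.15, and the code was checked on simulated counts. No p-value was computed, since there is 1 library per group. Alternatives were scaling by total counts, upper quartile or DESeq2 1.42.0 size factors, total counts without the 3 mitochondrially encoded rows (3.92% and 4.08% of counts), a pseudocount of 5, other count minimums and fold thresholds, and members left out. Values in both libraries are given for members past log2 0.2, the most abundant of each role, a fixed list of central genes and genes at 0. The other members and list genes named were chosen after their values were seen. The members and lists were chosen with earlier results of these data known. Protein sequences were not used here. Transcript lengths came from GENCODE M21 and promoters and positions from RefSeq GRCm38.p6.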

Additional observations from a re-analysis of the deposited data

How the results depend on the processing

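No paired analysis was possible because a group is a single library. The median log2 fold change of the members ranged from 0.10 to 0.13 over its 10 alternatives. The number of members higher by more than log2 0.2 was 15 with total counts (Chchd1, Ndufaf5 and Tomm40 then stayed under it), 16 with total counts without mitochondrially encoded rows and 18 with the upper quartile or DESeq2 size factors, and 0 members were lower under any scaling. Past log2 0.2, 16.6% of all rows were higher and 18.02% lower with total counts. Without mitochondrially encoded rows these shares were 16.8% and 17.9%. They were 19.2% and 15.4% with the upper quartile, and 17.8% and 16.7% with DESeq2 size factors. Other thresholds change by construction how many genes can pass. Past log2 0.1, 32 members were higher and 2 were lower, and past log2 0.5, 0 were higher. Shares of all rows are not given at these other thresholds, so the member counts there have no background to be read against. The role group medians stayed above 0 under each of their 7 alternatives. The leaving out of Tomm6os, of members with counts that are not whole, and of 9 members treated as copies was chosen after seeing the data. These 9 were Chchd2, Timm8a1, Timm8a2, Tomm20, Tomm20l, Tomm40, Tomm40l, Tomm6 and Tomm6os. All but Chchd2 had whole counts in both libraries. Without the 4 members whose counts were not whole, 16 of 51 were higher, and without those treated as copies 16 of 48. In both cases 17.9% of all rows were higher. The median of all rows was 0.0046 in the main setting, and ran from -0.011 with total counts to 0.018 with the upper quartile. Depth limits single genes: the median half-width of a member's interval was log2 0.19.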

Other observations

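Mitochondrial gene groups outside import and assembly were also read in these libraries. The genes of mitochondrial fission and fusion lay close to 0, with a median log2 fold change of 0.0013 over 8 genes. Opa1, which fuses inner membranes, had 3269 counts under the Ctrl label and 4068 under the OE label (0.0023, interval -0.065 to 0.069), and Mfn2, which fuses outer membranes, had 3962 and 4862 (-0.018, interval -0.079 to 0.043). The exception was Mief2, whose product recruits the fission enzyme, with 192 and 292 counts (0.29, interval 0.024 to 0.56).

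The proteases that clear or trim mitochondrial proteins had a median of -0.022 over 10 genes, and 0 of them passed log2 0.2. Lonp1 had 1418 and 1719 counts (-0.035, interval -0.14 to 0.067). Of 13 genes of coenzyme Q synthesis, 1 was lower by more than log2 0.2 and 0 were higher, with a median of 0.0054. It was Coq8a, listed as Adck3, with 409 and 442 counts. Its value of -0.201 (interval -0.40 to -0.0037) was barely past the threshold. Over all rows tested, 17.9% were higher and 16.6% lower by that threshold.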
